A study of Mus musculus with 2 samples.

Results

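The expression of 10 actin regulators was followed across the immune cells of the mouse spleen. They were the 3 Ena/VASP genes Vasp, Evl and Enah, 2 of the formins, Diaph1 and Fmnl1, and 5 of the coronins, Coro1a, Coro1b, Coro1c, Coro2a and Coro7. All 10 genes have a row in the table of 31017 gene symbols. They were grouped by family and chosen with earlier results of these data known. The labels name 2 spleen samples from mice 6 to 8 weeks old, 1 titled WAS660 (WAS-KO) and 1 titled WT664 (wild type), and give Wiskott-Aldrich syndrome as the mouse model for both. The deposited droplet-based 3-prime counts came as 1 table of 7524 cell barcodes that nothing ties to either sample. They were treated as 1 pooled sample without replicates, and the genotypes were not compared. The labels do not say how many animals gave the cells or how the Was gene was disrupted.

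Cells of at least 200 detected genes and at most 10% mitochondrial UMIs were kept, which left 6588 cells with 44751473 UMIs (unique molecular identifiers, counts of captured transcripts) and a median of 5339 UMIs per cell. Each cell was assigned to a lineage when at least 2 markers of that lineage were detected and no other marker list reached more than 25% of its UMIs, and 5472 cells (83.1%) passed 1 of the 11 gates. They comprised 2942 B cells, 60 plasma cells, 997 T cells, 278 NK cells, 130 monocytes, 393 macrophages, 28 conventional dendritic cells (cDC), 10 plasmacytoid dendritic cells (pDC), 186 neutrophils, 426 erythroid cells and 22 megakaryocytes or platelets (Mk/platelet). Markers left out of the gates had their highest level in the gate they belong to, except Cd74, which was higher in cDC (24257 CPM) than in B cells (12278 CPM). Levels (CPM) are a gene's UMIs per 1000000 UMIs of a gate, with an exact Poisson 95% interval in parentheses. Immunoglobulin or haemoglobin genes filled much of the plasma cell and erythroid UMIs, so the place of these types in each order depends on this total. All intervals cover counting error only, and no p-value was computed because cells are not replicates.

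Actin filaments grow from a fast end that capping proteins can block. Ena/VASP proteins bind that end, shield it from capping and feed it with profilin-bound actin, and they are recruited by proteins with proline-rich motifs such as zyxin and RIAM (Apbb1ip). Formins nucleate unbranched filaments and stay on the growing end. Coronins are WD40-repeat proteins that bind filaments and act with cofilin and the Arp2/3 complex in filament and branch turnover. Coro1a is the leukocyte form, whose loss causes T cell deficiency in mice and people. Wiskott-Aldrich syndrome protein activates Arp2/3, which builds the branched networks that these families extend, compete with or take apart.

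Promoter sequences were available from RefSeq (build GRCm38.p6) for 8 of the 10 genes. Those of the 4 genes that the comparisons below turn on are shown, as the 250 bases before the first listed start on the gene's strand, 5′ to 3′. Capitals mark matches to 1 of 4 searched words on either strand: the purine box GAGGAA, the ETS word CCGGAAG, the RUNX word TGTGGT and the GC box GGGCGG.
Vasp (chr7:19271855-19272104, minus strand): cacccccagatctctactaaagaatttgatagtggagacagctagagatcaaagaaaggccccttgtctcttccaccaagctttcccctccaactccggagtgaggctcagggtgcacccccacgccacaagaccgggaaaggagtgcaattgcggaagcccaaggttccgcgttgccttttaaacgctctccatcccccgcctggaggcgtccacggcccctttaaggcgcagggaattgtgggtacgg
Evl (chr12:108554470-108554719, plus strand): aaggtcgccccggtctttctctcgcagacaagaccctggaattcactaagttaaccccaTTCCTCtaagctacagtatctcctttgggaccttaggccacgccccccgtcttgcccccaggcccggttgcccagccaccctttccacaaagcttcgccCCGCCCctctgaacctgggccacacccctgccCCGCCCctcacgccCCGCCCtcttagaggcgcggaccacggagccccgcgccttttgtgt
Coro1a (chr7:126704817-126705066, minus strand): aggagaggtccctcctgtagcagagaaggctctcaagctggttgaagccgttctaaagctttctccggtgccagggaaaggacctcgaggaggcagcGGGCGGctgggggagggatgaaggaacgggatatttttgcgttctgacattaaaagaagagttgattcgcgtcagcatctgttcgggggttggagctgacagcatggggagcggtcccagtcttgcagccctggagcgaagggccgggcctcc
Coro2a (chr4:46601930-46602179, minus strand): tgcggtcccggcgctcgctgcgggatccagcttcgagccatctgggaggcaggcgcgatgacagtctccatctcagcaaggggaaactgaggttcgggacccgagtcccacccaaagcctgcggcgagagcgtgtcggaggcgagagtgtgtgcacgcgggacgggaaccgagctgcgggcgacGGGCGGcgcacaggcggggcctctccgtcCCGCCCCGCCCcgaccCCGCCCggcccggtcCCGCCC
The Evl window holds 3 GC boxes and 1 purine box, the Coro2a window 5 GC boxes of which some overlap, the Coro1a window 1 GC box and the Vasp window none of the 4 words. Over 32851 RefSeq promoters of the same length, 32.7% hold a GC box, 23.3% the purine box, 14.1% the RUNX word and 6.91% the ETS word. These matches describe letters, and 3-prime counts cannot show which start a cell used.

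Vasp, the founding family member, lies at chr7:19256929-19271817 (GENCODE vM21, GRCm38, minus strand). It reached 460 CPM (432 to 489) in neutrophils and 395 CPM (341 to 455) in macrophages, and these did not differ beyond counting error. NK cells followed at 317 CPM (288 to 348). T cells held 223 CPM, Mk/platelet cells 218 CPM on 5 UMIs, B cells 210 CPM and cDC 177 CPM, and each did not differ from its neighbour in this order. Compared directly, T over B had a log2 ratio of 0.09 (0.002 to 0.170). Monocytes, at 113 CPM (97.3 to 130), plasma cells, at 51.3 CPM (41.5 to 62.8), and erythroid cells, at 13.4 CPM (10.5 to 16.9), each lay below the type before it. Immunoglobulin, haemoglobin, mitochondrial and ribosomal genes filled 62.9% of plasma cell and 79.3% of erythroid UMIs, against 23.1% in monocytes. The size of these steps depends on the total used, and whether they remain on another total was not tested. The 10 pDC gave 4 UMIs (36.2 CPM). Neutrophils and macrophages thus held the high end of the Vasp order and erythroid cells the low end.

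Evl, a second Ena/VASP protein (chr12:108554720-108688516, plus strand), had a different order. NK cells, at 256 CPM (230 to 285), T cells, at 246 CPM (235 to 257), and macrophages, at 201 CPM (163 to 245), stood first, and each did not differ from the next. It then stood at 164 CPM in cDC, 145 CPM in B cells and 103 CPM in monocytes, of which only B cells and monocytes were apart. Neutrophils held 17 UMIs in 186 cells, 7.80 CPM (4.54 to 12.5), with erythroid cells at 7.94 CPM (5.72 to 10.7) and plasma cells at 8.73 CPM (4.99 to 14.2). In neutrophils, first in the order for Vasp, Evl in CPM of all UMIs did not differ from erythroid cells beyond counting error. Immunoglobulin, haemoglobin, mitochondrial and ribosomal genes filled 79.3% of erythroid and 62.9% of plasma cell UMIs, but 7.79% of neutrophil UMIs. This match in CPM therefore depends on the total used. After each cell was thinned to 1000 UMIs, 0 of 183 neutrophils carried an Evl UMI, which allows a share of up to 1.64%, against 22.4% of T cells and 13.8% of monocytes. For Vasp the same shares were 39.9% of neutrophils, 19.3% of T cells and 10.0% of monocytes. Without thinning, Evl was seen in 8.06% of neutrophils, 76.2% of T cells and 7.51% of erythroid cells.

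Enah, the family member best known from neurons and adherent cells (chr1:181896384-182019990, minus strand), was nearly absent, with 43 UMIs in 6588 cells. B cells gave 19 of them (1.07 CPM), plasma cells 8 in 7 cells (4.37 CPM, 1.88 to 8.60), neutrophils 3, and NK cells, cDC and erythroid cells 1 each. No UMI was seen in T cells, monocytes, macrophages, pDC or Mk/platelet cells, and a count of 0 allows up to 0.401 CPM in T cells.

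**Figure D1:**
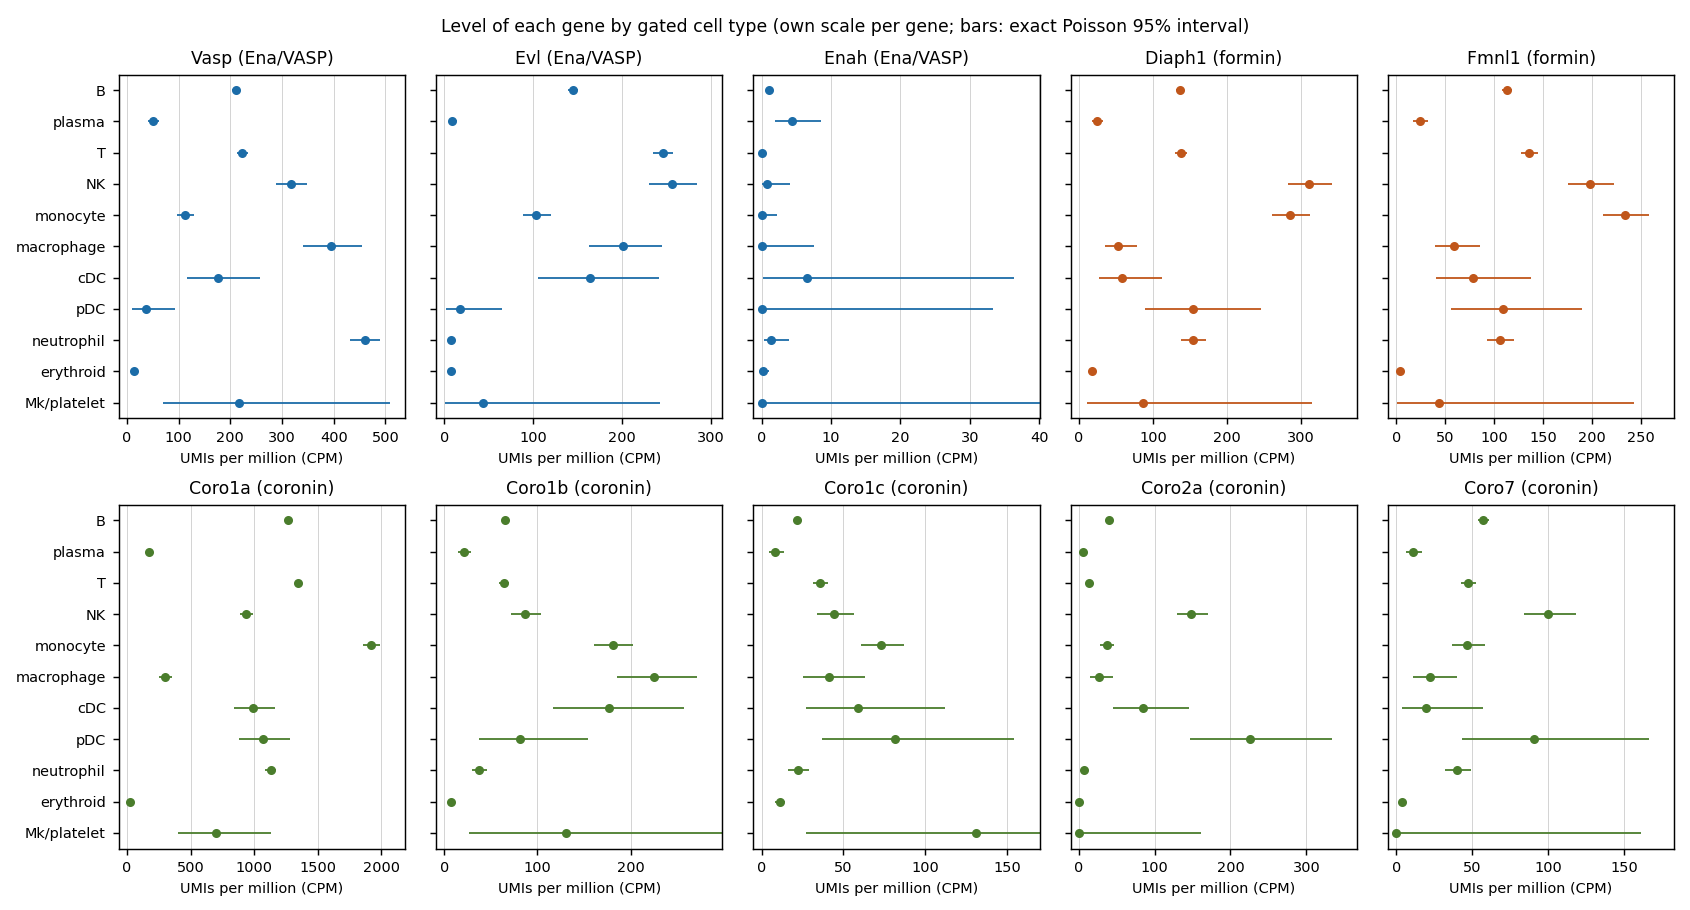
Level of each of the 10 genes (CPM, horizontal, own scale in each panel) in the 11 lineage gates, with exact Poisson 95% intervals; intervals of the 22 Mk/platelet cells run past some panel edges. Vasp is highest in neutrophils (460 CPM), where Evl is at 7.80 CPM, and Coro1a is highest in monocytes (1920 CPM).

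The formin Diaph1 (mDia1) stood at 311 CPM (282 to 342) in NK cells and 285 CPM (260 to 312) in monocytes, which did not differ. Neutrophils at 155 CPM, T cells at 138 CPM and B cells at 137 CPM formed a second level in which no neighbours differed. It was lower in macrophages, at 53.2 CPM (34.8 to 78.0), plasma cells, at 24.0 CPM (17.4 to 32.2), and erythroid cells, at 17.4 CPM (14.0 to 21.3). The erythroid value came from 92 UMIs in 28 of 426 cells, 16 of them in 1 cell. Dendritic cells gave 58.9 CPM (cDC, 9 UMIs) and 154 CPM (pDC, 17 UMIs), and Mk/platelet cells 87.1 CPM on 2 UMIs.

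Fmnl1, the leukocyte formin of the FMNL subfamily (chr11:103171107-103198901, plus strand), ran close to Diaph1. Its level was 234 CPM (211 to 258) in monocytes, 198 CPM (175 to 223) in NK cells, 136 CPM (128 to 144) in T cells and 113 CPM (108 to 118) in B cells, and these 4 differed step by step. Neutrophils, at 106 CPM, were not apart from B cells. The low end again held macrophages (59.4 CPM), plasma cells (24.0 CPM) and erythroid cells (3.59 CPM, 2.16 to 5.61). cDC were at 78.5 CPM, pDC at 108 CPM and Mk/platelet cells at 43.6 CPM, on 12, 12 and 1 UMIs. For the split between both formins, Diaph1 took 54.7% of their summed UMIs in B cells, 50.4% in T cells, 54.9% in monocytes, 59.3% in neutrophils and 61.1% in NK cells (57.4% to 64.7%, exact binomial interval), and 82.9% in erythroid cells.

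Coro1a had 46609 UMIs, the most of the 10 genes (chr7:126699773-126707787, minus strand). Monocytes stood first at 1920 CPM (1855 to 1988), followed by T cells at 1344 CPM, B cells at 1265 CPM and neutrophils at 1128 CPM, each apart from the next. cDC at 994 CPM and NK cells at 937 CPM did not differ. Macrophages were far lower at 301 CPM (254 to 354), with a UMI in 68 of 393 cells, and plasma cells stood at 176 CPM (158 to 197). Erythroid cells gave 26.1 CPM (21.9 to 30.8). At 1000 UMIs per cell, 91.5% of monocytes and 71.1% of B cells carried Coro1a, but 20.8% of 125 macrophages (268 were shallower), 15.0% of plasma cells and 3.58% of erythroid cells did. Without thinning the macrophage share was 17.3% and the erythroid share 21.6%. The erythroid cells, which should hold little Coro1a, had a median depth of 11726 UMIs against 5134 in B cells, and haemoglobin filled 72.7% of their UMIs.

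Coro1b, a broadly expressed coronin at the edge of migrating cells (chr19:4148619-4154035, plus strand), was highest in macrophages, monocytes and cDC. Macrophages at 225 CPM (185 to 271), monocytes at 181 CPM (161 to 202) and cDC at 177 CPM (116 to 257) did not differ from each other in order. NK cells were at 86.9 CPM, B cells at 65.3 CPM, T cells at 63.8 CPM and neutrophils at 37.2 CPM (29.5 to 46.2), with 20.7 CPM in plasma and 7.37 CPM in erythroid cells. Coro1b overlaps Ptprcap on the same strand over 432 bases, so the authors' counting could have split reads between them. Ptprcap stood at 816 CPM in B cells and 15.3 CPM in monocytes, opposite to Coro1b between these types. This did not hold throughout: NK cells had more of both than B cells (Ptprcap 896 CPM), and erythroid cells were low in both (Ptprcap 26.3 CPM). Because of the overlap the Coro1b levels of lymphocytes are uncertain.

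Coro1c, a widely expressed coronin (chr5:113842436-113908758, minus strand), was at 73.2 CPM (60.9 to 87.3) in monocytes, 58.9 CPM in cDC, 44.2 CPM in NK cells, 40.9 CPM in macrophages and 35.7 CPM in T cells, with no neighbours apart. The cDC value rests on 9 UMIs and the macrophage value on 20. Steps between neighbours do not show whether types further apart in the order differ. The T cell level, on 267 UMIs, lay below the monocyte interval, but no direct ratio was computed. Neutrophils (22.0 CPM) and B cells (21.7 CPM) lay below T cells. Erythroid cells gave 10.97 CPM, but 13 of their 58 UMIs came from 1 cell. Mk/platelet cells gave 131 CPM on 3 UMIs.

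Coro2a, a coronin also described in nuclear corepressor complexes (chr4:46536937-46602202, minus strand), was the most uneven coronin. NK cells reached 148 CPM (129 to 170), with a UMI in 129 of 278 cells, and the 10 pDC 226 CPM (146 to 334), with a UMI in 8 of them. cDC gave 85.0 CPM on 13 UMIs, of which 7 were in 1 cell. B cells stood at 39.2 CPM (36.3 to 42.2), monocytes at 36.6 CPM, macrophages at 26.6 CPM and T cells at 13.6 CPM (11.1 to 16.6). Neutrophils (6.88 CPM), plasma cells (6.00 CPM) and erythroid cells (2 UMIs, 0.378 CPM) were lower. Mk/platelet cells had no Coro2a UMI, which at their depth allows up to 131 CPM. At 1000 UMIs per cell, 15.5% of NK cells, 4.55% of B cells and 1.91% of T cells carried it, against 0 of 419 erythroid cells, which allows up to 0.716%. Without thinning the shares were 46.4%, 18.9%, 6.22% and 0.469%.

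Coro7, a Golgi-associated coronin with tandem WD40 domains (chr16:4626133-4679777, minus strand), was highest in NK cells at 99.95 CPM (84.0 to 118), above B cells at 57.1 CPM and T cells at 47.4 CPM. Monocytes (46.6 CPM) and neutrophils (39.9 CPM) did not differ from T cells in order, macrophages stood at 22.5 CPM, plasma cells at 10.9 CPM and erythroid cells at 3.59 CPM. Dnaja3 overlaps Coro7 on the other strand, with 836 UMIs in all against 1964 for Coro7, and Bola2 overlaps Coro1a by 26 bases. Whether the counting used strand is not given in the sources used here.

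**Figure D2:**
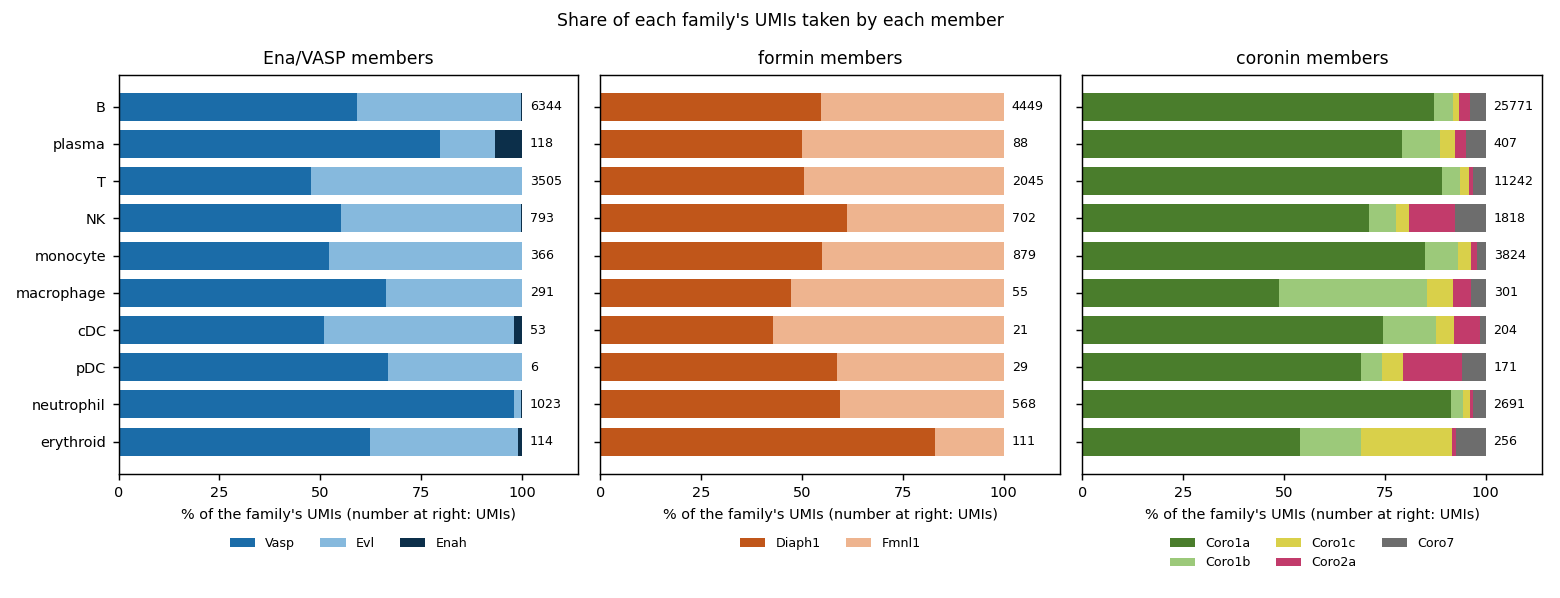
Share (%) of each family's summed UMIs taken by each member in 10 lineage gates, with the family's UMIs at the right of each bar; capture differs between genes, so shares are compared across cell types only. Evl is 1.66% of Ena/VASP UMIs in neutrophils, Coro1b is 36.5% of coronin UMIs in macrophages, and Coro2a is 11.3% in NK cells and 14.6% in pDC.

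Shares within a family do not depend on how a cell's total is scaled. Vasp made up 98.0% of Ena/VASP UMIs in neutrophils (97% to 98.8%), against 66.3% in macrophages, 59.0% in B cells, 55.2% in NK cells, 52.2% in monocytes and 47.6% in T cells. Neutrophils were the 1 type of these 6 in which Evl was all but missing. Coro1a took between 85.1% and 91.4% of coronin UMIs in B cells, T cells, monocytes and neutrophils, 79.4% in plasma cells, 71.2% in NK cells and 48.8% in macrophages (43.1% to 54.6%). Other members took more there: in macrophages Coro1b took 36.5% (31.1% to 42.3%), and in NK cells Coro2a took 11.3% (9.86% to 12.8%). The Coro2a share was 14.6% (9.69% to 20.8%, 25 UMIs) in the 10 pDC and 6.37% in cDC. Coro1a took 74.5% in cDC, 69.0% in pDC and 53.9% in erythroid cells.

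Neutrophils were compared with monocytes. A gene was called when it was at least 2-fold apart on at least 100 UMIs over both types, and 7.16% of 4314 genes passed as higher and 46.6% as lower. Of 8 members tested, 1 was higher (Vasp, log2 ratio 2.03, 95% interval 1.80 to 2.26) and 4 were lower: Evl (-3.73, -4.54 to -3.01), Coro1b (-2.28), Coro1c (-1.73) and Fmnl1 (-1.14). The 4 lower calls stand against that large share of lower genes: the median gene was at -0.91, and S100a8 alone stood at 176926 CPM in neutrophils (250.3 CPM in monocytes), whose part in the result was not tested. Relative to that median Vasp was at 2.94 and Evl at -2.82. With median-of-ratios size factors 16.1% of genes were higher and 17.6% lower, and 5.87% and 57.9% with a total that left out ribosomal, mitochondrial, haemoglobin and immunoglobulin genes. Coro1a (-0.77), Diaph1 (-0.88) and Coro7 (-0.22) had negative ratios that turned to 0.15, 0.03 and 0.69 with size factors, and Fmnl1 moved to -0.23. With the reduced total the same ratios were -1.03 for Coro1a, -1.14 for Diaph1 and -0.49 for Coro7, which added Coro1a and Diaph1 to the lower calls.

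Macrophages had more Vasp than monocytes and less Coro1a and formin RNA. In this comparison 7.03% of 3416 genes were called higher and 18.3% lower, and 4 of 7 members tested were called. Vasp was higher (1.81, 1.51 to 2.11), and Coro1a (-2.67, -2.92 to -2.44), Diaph1 (-2.42) and Fmnl1 (-1.98) were lower. Evl (0.96, 0.59 to 1.32) was higher by less than 2-fold and passed it with size factors (1.19) and, just, with the reduced total. Coro1b was at 0.32 and turned to -0.01 among cells of at least 1000 UMIs, and Coro1c stood at -0.84. The macrophage gate was shallow, with a median of 809 UMIs per cell against 11800.5 in monocytes. It also carried transcripts of other cells: Hbb-bs stood at 12283 CPM (851 CPM in monocytes), the B cell list, with 7 of 7 genes detected, at 426 CPM (100.9 CPM in monocytes), and the T cell list, 4 of 4 detected, at 75.7 CPM (8.86 CPM). The plasma, NK, pDC, erythroid and Mk/platelet lists were also higher in macrophages. The neutrophil list (106 against 186 CPM) and the cDC list (36.8 against 47.8 CPM) were lower. The monocyte list, 7 of 7 detected, stood at 1535 CPM in the macrophage gate and 2982 CPM in monocytes. The part of these transcripts in the result was not tested. Among cells of at least 1000 UMIs the ratios were 1.65 for Vasp, -2.36 for Coro1a, -2.42 for Diaph1 and -1.55 for Fmnl1. Size factors gave 9.40% of genes higher and 13.5% lower.

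Monocytes against B cells had 4 of 9 members called higher, Coro1c (1.75, 1.45 to 2.05), Coro1b (1.47), Diaph1 (1.06) and Fmnl1 (1.05), where 15.2% of 9039 genes were higher and 18% lower. Vasp (-0.90) and Evl (-0.49) were lower by less than 2-fold, opposite in sign to both formins and to Coro1a (0.60). With the total that left out ribosomal and other classes, 11.95% of genes were higher and 24.2% lower, and Diaph1 (0.81) and Fmnl1 (0.80) were no longer past 2-fold while Vasp reached -1.15.

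**Figure D3:**
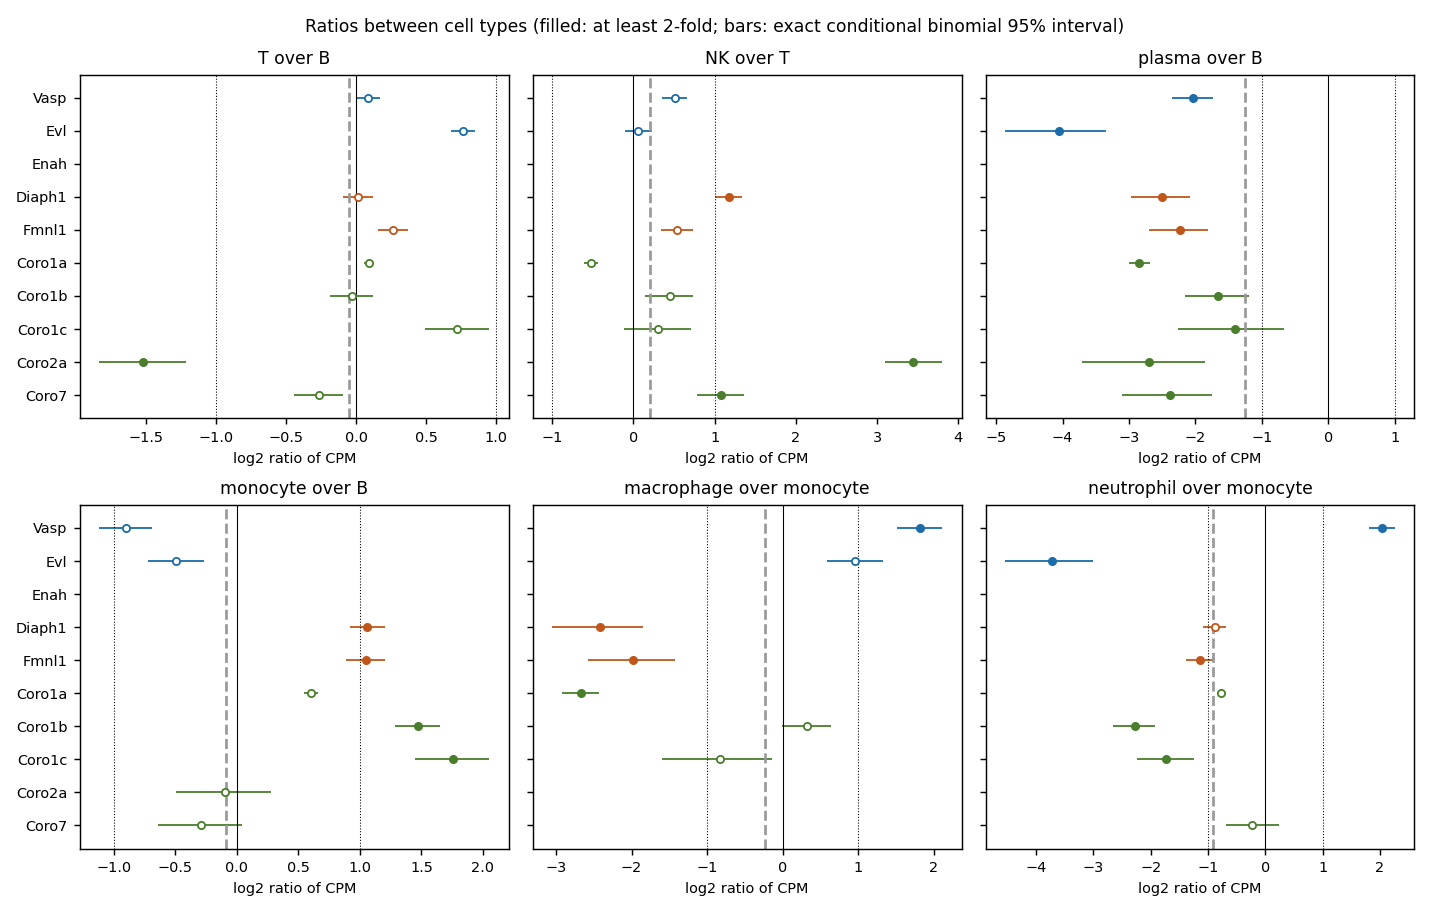
Log2 ratio of CPM (horizontal) for each member tested in 6 comparisons of cell types, with exact conditional binomial 95% intervals; filled points are at least 2-fold apart, dotted lines mark 2-fold and the grey dashed line is the median of all genes tested. All 9 tested members lie below 0 in plasma cells, and Coro2a in NK cells stands at 3.44.

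NK cells against T cells had 3 of 9 members called higher and none lower, where 9.32% of 7306 genes were higher and 7.08% lower. They were Coro2a (3.44, 3.09 to 3.80), Diaph1 (1.17, 1.01 to 1.34) and Coro7 (1.08, 0.78 to 1.36). Vasp (0.51) and Fmnl1 (0.54) were higher by less than 2-fold, Coro1a was lower (-0.52), and Evl, at 0.06, turned to -0.14 with size factors. Only Coro2a kept its call, at 3.24 and 3.10, under the 2 other scalings, where Diaph1 stood at 0.97 and 0.83 and Coro7 to 0.88 and 0.74. Those scalings called 6.69% and 5.42% of genes higher and 9.61% and 11.6% lower.

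T cells against B cells had 8.27% of 9373 genes higher and 10.9% lower. Of 9 members tested only Coro2a was called, lower in T cells at -1.52 (-1.83 to -1.22). Evl (0.76, 0.67 to 0.85) and Coro1c (0.72, 0.49 to 0.95) were higher by less than 2-fold. Vasp and Coro1a (both 0.09), Diaph1 (0.01) and Coro1b (-0.03, 0.02 with size factors) were within 0.1 of 0. A stricter mitochondrial maximum of 5% kept 307 of 2942 B cells and put Fmnl1 at 0.83, Diaph1 at 0.36 and Vasp at -0.09.

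In plasma cells against B cells all 9 members tested were called lower, but so were 61.2% of 8785 genes, with 4.58% higher and a median gene at -1.26. Immunoglobulin transcripts filled 49.7% of plasma cell UMIs. The most changed were Evl (-4.06, -4.86 to -3.35), Coro1a (-2.84) and Coro2a (-2.71), and the least Coro1c (-1.41). Relative to the median gene Evl was at -2.80 and Coro1a at -1.59, while Coro1c was at -0.15. Size factors left 5 members called, with 16.4% of genes higher and 18.2% lower, and the reduced total gave 10.2% and 28.4%.

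Erythroid cells against B cells had 8 of 9 members called lower, where 82.3% of 8950 genes were lower and 4.49% higher. Coro1a was at -5.60 (-5.85 to -5.36), Coro2a at -6.69 on 2 UMIs, Fmnl1 at -4.98 and Diaph1 at -2.98, with the median gene at -2.23. Coro1c, at -0.98, turned to 1.23 with size factors and 0.66 with the reduced total. Diaph1 (-0.76) and Coro1b (-0.93) lost their calls with size factors, which left 6 members lower and made Coro1c the 1 called higher. Those scalings gave 21.7% and 12.4% of genes higher and 24.7% and 37.3% lower.

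The smallest gates allowed less. In cDC against monocytes 2 of 7 members tested were called lower, Diaph1 (-2.28, -3.41 to -1.34) and Fmnl1 (-1.57, -2.54 to -0.75), where 26.4% of 2928 genes were lower and 3.38% higher (18.4% and 7.72% with size factors). Coro1b (-0.03) and Coro1c (-0.31) were not called and turned to 0.34 and 0.05 with size factors. The same scaling took Vasp from 0.65 to 1.01 and Evl from 0.66 to 1.03, so that 2 members were called higher and 2 lower. In Mk/platelet cells against monocytes 4 of 7 were called lower on 1 to 16 UMIs each, where 48.2% of 2768 genes were lower and 8.92% higher (40.5% and 14.6% with size factors), and the intervals of 3 of these 4 include 0.

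Within T cells, CD8 and CD4 cells (306 and 483) differed by less than 2-fold in all 8 members tested, where 2.19% of 6128 genes were higher and 1.58% lower. The largest ratio was 0.31 for Coro1b (0.02 to 0.61). Effector-memory T cells (87, with at least 2 of Cxcr3, S100a4, Itgb1, Ccl5 and Cxcr6 and no Ccr7 or Lef1) against naive T cells (379, with at least 2 naive markers, among them Ccr7, Lef1 and Igfbp4, and none of the effector-memory markers) also had 0 of 7 members called, where 5.48% of 3957 genes were higher and 2.86% lower. Their median ratio, at 0.71, lay above that of all genes, at 0.16. Coro1b (0.97, 0.48 to 1.43), Diaph1 (0.89, 0.58 to 1.19), Fmnl1 (0.73, 0.41 to 1.05) and Vasp (0.71, 0.45 to 0.98) had ratios above 0 that stayed under 2-fold. Evl was at -0.71 (-1.04 to -0.40). Vasp stood at 175 CPM in naive and 287 CPM in effector-memory cells and Evl at 266 and 163 CPM. Vasp was 39.6% of Ena/VASP UMIs in naive cells (36.7% to 42.6%) and 63.8% in effector-memory cells (57.6% to 69.7%). Marker lists of other cell types were also higher in the effector-memory gate, except the pDC and cDC lists. The pDC list stood at 19.3 CPM against 45.7 CPM in naive cells, and the cDC list, with 0 of 6 genes detected, against 1.59 CPM. The monocyte list summed to 245 CPM (5 of 7 genes detected, Ace and Cd300e at 0) against 7.95 CPM in naive cells (7 of 7), the NK list to 57.8 CPM (3 of 5, Klra8 and Klra4 at 0) against 3.58 CPM (5 of 5), and Lyz2 stood at 224 CPM against 46.5 CPM. Their part in the result was not tested. Coro1a was near level at 0.22 and turned to -0.05 with the reduced total. Size factors gave 4.14% of genes higher and 3.79% lower, and the reduced total 3.36% and 5.03%.

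Regulatory T cells, CD4 cells with a Foxp3 UMI, were compared after the values of Coro2a had been seen. Coro2a had 21 UMIs in 9 of 27 such cells, 119 CPM (73.9 to 182), with at most 4 in 1 cell. The other 456 CD4 cells held 11 UMIs in 9 cells, 3.51 CPM (1.75 to 6.27). The sum of 32 Coro2a UMIs lies under the 100 set for a call. The 8 members tested here, among 4291 genes with a median of 0.08, had ratios from -0.32 (Coro1c) to 0.60 (Coro7). The share of all genes past 2-fold was not recorded for this comparison, so no count of calls is read. Without the 1 cell that carried at least 10 Lyz2 UMIs, 18 Coro2a UMIs remained (107 CPM, 63.1 to 168). The cDC list had 0 of 6 genes detected in regulatory T cells. The NK list had 1 of 5 detected, with Ncr1, Klre1, Klra8 and Klra4 at 0, but summed to 17.0 CPM against 9.56 CPM. The monocyte list stood at 113.6 CPM (4 of 7 detected) against 28.7 CPM in the other CD4 cells (7 of 7). The plasma, pDC, neutrophil and erythroid lists were also higher in regulatory T cells, and the B cell, macrophage, cDC and Mk/platelet lists lower. Lyz2 stood at 630.7 CPM there and 89.0 CPM in all CD4 cells. Beyond leaving out that 1 cell, their part in the result was not tested. Vasp, at 284 CPM against 207 CPM, and Coro1a, at 1352 CPM against 1400 CPM, differed by less than 2-fold.

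**Figure D4:**
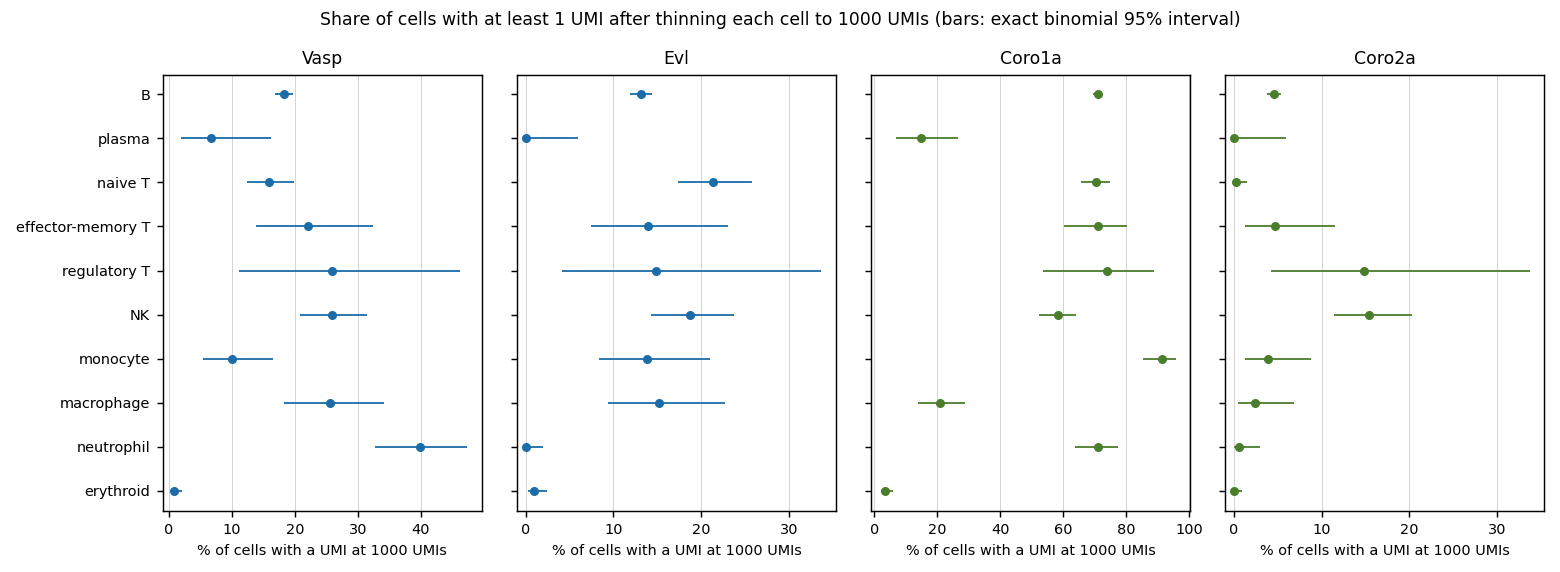
Share (%) of cells with at least 1 UMI of Vasp, Evl, Coro1a or Coro2a after each cell was thinned to 1000 UMIs, with exact binomial 95% intervals, in 10 cell types and T cell subsets. Evl is at 0% in neutrophils, where Vasp is at 39.9%, and Coro2a is at 15.5% in NK cells and 14.8% in the 27 regulatory T cells.

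B cell subsets differed by less than 2-fold in every member tested. In marginal zone (342, chosen by markers such as S1pr3 and Cr2) against follicular (1527, with Fcer2a) B cells 0 of 9 members were called, where 2.11% of 7808 genes were higher and 1.75% lower (2.57% and 1.27% with the reduced total). Coro2a (-0.55), Fmnl1 (-0.52), Coro1a (-0.40), Diaph1 (-0.39) and Evl (-0.36) were lower in marginal zone cells and had intervals below 0, and Vasp was at 0.14 (0.01 to 0.27). Coro1a stood at 996 CPM (960 to 1032) there and 1316 CPM (1292 to 1341) in follicular cells. Transitional (217, with Cd93) against follicular B cells had 0 of 9 called, where 0.662% of 7405 genes were higher and 0.878% lower. Evl was at -0.35 (-0.60 to -0.12), Coro1c at 0.52 (-0.06 to 1.06), and both formins were within 0.02 of 0.

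Neutrophils with at least 10 UMIs of Camp, Ngp and Ltf (immature, 129) and with at most 2 (mature, 56) differed in their formins. Diaph1 was at 135 CPM in immature and 399 CPM in mature cells (-1.56, -1.96 to -1.15), and Fmnl1 at 89.8 and 307 CPM (-1.77, -2.23 to -1.29). These were the 2 of 4 members tested that were called lower in immature cells, where 29.6% of 1960 genes were lower and 17% higher (20.8% and 22.3% with size factors). Vasp was at 452 and 558.5 CPM (-0.31, -0.62 to 0.02, and 0.07 with size factors) and Coro1a at 1084 and 1675 CPM (-0.63). Evl was low in both, with 15 and 2 UMIs. Coro7 had 86 UMIs in immature and 1 in mature cells, a ratio of 2.80 with an interval of 0.28 to 8.12, under the minimum for a call. The mature cells were shallower, with a median of 2681 UMIs against 14522, so a minimum in UMIs also separates cells by depth. Some other lists were higher in the mature than in the immature gate. The monocyte list stood at 227 CPM against 13.9 CPM (3 of 7 genes detected, Ccr2, F13a1, Ace and Cd300e at 0, against 7 of 7). The macrophage list stood at 528 CPM against 150 CPM (6 of 7 against 7 of 7). The Mk/platelet list stood at 209 CPM against 22.8 CPM (6 of 7 against 5 of 7), and the cDC and erythroid lists were also higher. The B cell list (117 against 189 CPM) and the T cell list (18.4 against 80.3 CPM) were lower in the mature gate, as were the plasma, NK and pDC lists. The part of depth and of these cell types in the result was not tested.

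**Figure D5:**
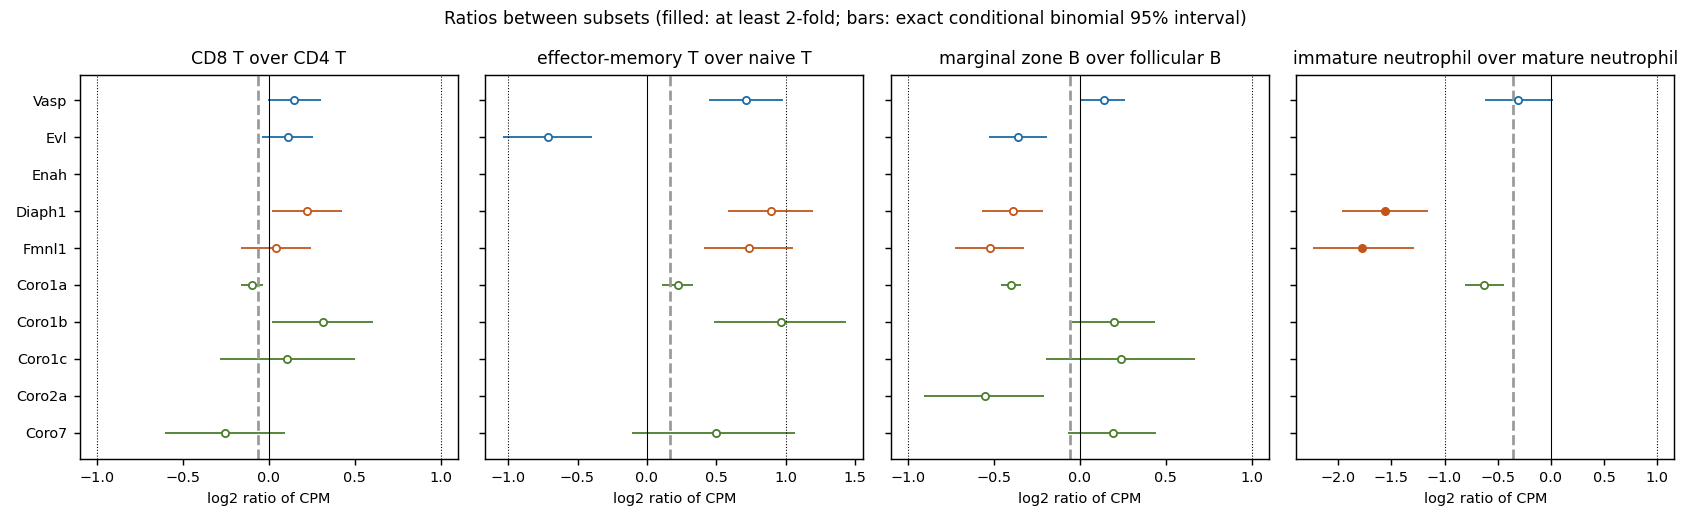
Log2 ratio of CPM (horizontal) for each member tested in 4 comparisons of subsets, drawn as in the plot of cell type ratios; effector-memory cells have Vasp at 0.71 and Evl at -0.71. Only Diaph1 and Fmnl1, in immature against mature neutrophils, are past 2-fold.

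Dendritic and monocyte subsets were too few to compare, with 10 pDC, 17 nonclassical monocytes and 2 cDC2. Fmnl1 was at 480 CPM (353 to 639) in nonclassical and 161 CPM (130 to 198) in 30 classical monocytes, and Evl at 143 CPM (78.2 to 240) and 40.7 CPM (25.8 to 61.1). Summed by family, Ena/VASP genes gave 337 and 142 CPM, both formins 889 and 403 CPM and the coronins 2411 and 1893 CPM. When other marker lists were allowed up to 50%, 14.2% of 1314 genes were higher and 21.6% lower in nonclassical than in classical monocytes. The 23 cDC1 had Coro2a at 103 CPM (54.9 to 176) and the 2 cDC2 had no Coro2a UMI, which allows up to 147 CPM.

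Other genes of the pathways were taken from lists of related formins, coronins and partners. Of the Ena/VASP partners, 11 of 12 listed symbols had a row, and in T over B 10 were tested, with 5 higher, 2 lower and a median of 1.11 against -0.05 for all genes, of which 8.27% were higher and 10.9% lower. They included the adaptors Skap1 (6.41) and Fyb (5.93), which link RIAM and Ena/VASP to integrins in T cells, and zyxin (Zyx, 2.39), while Vcl (-2.84) was lower. In NK over T, Zyx (1.87), Raph1 (2.48) and Skap2 (1.83) were the 3 of 9 called higher, where 9.32% of all genes were. In neutrophil over monocyte, 1 of 7 was higher (Vcl, 1.41) and 3 lower, among them Fyb (-2.52), a share near the 46.6% of all genes that were lower, while Zyx was at -0.10.

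Of 13 other formins, 5 to 7 were abundant enough to test in the comparisons of lymphocytes, monocytes and erythroid cells. Erythroid cells had 3 of 7 higher than B cells, Fhdc1 (7.41, with 3 UMIs in B cells), Diaph3 (2.56) and Daam1 (2.35), where 4.49% of all genes were higher. The other 4 were lower, a smaller share than the 82.3% of all genes. Monocytes had 4 of 6 higher than B cells, led by Diaph2 (2.59) and Daam1 (2.52), and 1 lower, Fmnl3 (-2.14), where 15.2% of all genes were higher and 18% lower. Fmnl2, the sister of Fmnl1, was at 190 CPM in pDC, 105 CPM in cDC, 85.98 CPM in macrophages and 0.590 CPM in monocytes. Neither of the 2 other coronins, Coro2b (55 UMIs) and Coro6 (4 UMIs), could be tested.

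Of the coronin partners, which include cofilin (Cfl1) and the slingshot phosphatases that activate it, 8 were tested in NK over T with 1 higher (Ssh1, 1.47), near the 9.32% of all genes. Effector-memory T cells had Zyx (2.23) and Ssh1 (1.28) higher and Ssh2 lower (-1.05), each 1 of 7 tested in its list and direction, where 5.48% of all genes were higher and 2.86% lower. In immature over mature neutrophils 4 of 6 Ena/VASP partners were lower, led by Fyb (-3.03) and Zyx (-2.57), and 1 was higher, Vcl (2.14), where 29.6% of all genes were lower and 17% higher.

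Genes whose pattern was most like each member were ranked by Pearson correlation of log2(CPM + 1) over the 8 lineage gates of at least 50 cells, among 8617 genes. They were Selenoo (0.98), Klf7 and Sri for Vasp; Rcn2 (0.99), Dcun1d2 and Ifi47 for Evl; Ppp4r1 (0.98), Prkd3 and H2afv for Diaph1; and Tmem19 (0.99), Stam2 and Stim2 for Fmnl1. For the coronins they were Ssh2 (0.99), Uhrf1bp1l and Pigb for Coro1a, Lamtor5 (0.99), Ywhag and Pgap2 for Coro1b, Slc25a44 (0.98), Fbxw4 and Plagl2 for Coro1c, Vps45 (0.99), Zdhhc5 and Nde1 for Coro2a, and Rchy1 (0.99), Ppp1r35 and Akna for Coro7. Among the members, Fmnl1 and Coro1a were closest at 0.97 and Vasp and Evl least alike at 0.56. By Spearman correlation Diaph1 and Fmnl1 were closest at 0.90, and Vasp was least alike to Evl and to Coro1a, both at 0.26. The 8 points share their scaling totals, with low values in plasma and erythroid cells for most genes, and Enah had too few UMIs to rank.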

How the data were processed

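The deposited values are UMI counts per gene symbol and cell barcode, whole numbers with no normalization by the authors. Per the labels' protocols, 3-prime libraries from spleen cells were read on a HiSeq4000 or NovaSeq and mapped to mm10-3.0.0. Strand handling and the mapping program were not given in the sources used here.

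Members and lists were chosen with earlier results of these data known. Barcodes under 200 genes (101) or over 10% mitochondrial UMIs (857) were removed, 936 in all. Scrublet (scanpy 1.11.5) called 137 of 6588 cells (2.08%) as doublets, which were kept and removed only as an alternative. Lineage gates used raw UMIs of fixed markers, such as Cd3e for T cells and C1qa for macrophages. Of the 1116 ungated cells, 484 met the marker minimum of more than 1 lineage. The comparison of regulatory T cells with other CD4 T cells and 3 alternatives were chosen after seeing the data. UMIs were summed over each gate. Ratios carry exact conditional binomial intervals, shares exact binomial (Clopper-Pearson) ones and sums exact Poisson ones, all at 95% (scipy 1.17.1), and a count of 0 was taken to allow 3. Gates of under 20 cells were not compared. Depth ran from a median of 809 UMIs in macrophages to 29614.5 in plasma cells. Erythroid values are given beside shares as a type that should hold little of these RNAs. Named genes are all 10 members, the lists' called genes with large ratios, and the 3 most like genes, leaving out gate markers and immunoglobulin, receptor, haemoglobin, mitochondrial and ribosomal genes. The ratio script was checked on simulated data. Alternatives changed the filters, gates, scaling, thinning and minimum. Sequences came from RefSeq, positions from GENCODE vM21. Diaph1 positions and protein sequences are not used here, and 1 gate marker and 1 gene list are not reported here.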

Additional observations from a re-analysis of the deposited data

How the results depend on the processing

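No member called in the main analysis changed sign under the alternatives that were run, but Coro1c in erythroid over B, uncalled at -0.98, was called higher at 1.23 with size factors. Of 161 counts of called members 152 stayed within 1.5 times of the main count. With median-of-ratios size factors the count was 1 (3 in the main analysis) in NK over T, 5 (9) in plasma over B, 3 (5) in neutrophil over monocyte and 4 (2, both lower) in cDC over monocyte, of which 2 were higher and 2 lower. With a total that left out immunoglobulin, haemoglobin, mitochondrial and ribosomal genes it was 1 in NK over T. Allowing other marker lists up to 50% gave 4 in cDC over monocyte, 1 (4) in Mk/platelet over monocyte and 1 (0) in effector-memory over naive T. A mitochondrial maximum of 5% gave 1 in the last. At 50%, 3.46% of all genes were higher and 19.55% lower in cDC over monocyte. For Mk/platelet over monocyte the shares were 7.34% and 26.0%, against 8.92% and 48.2% in the main analysis. Effector-memory over naive T had 6.59% and 2.71% at 50%, and 6.03% and 3.75% with the 5% maximum. Of the members' single ratios 1145 stayed within their counting interval and 136 moved, the cause was not tested, and the share of genes past 2-fold moved in 13 of 14 comparisons with a minimum of 20 UMIs. Ranking like genes by Spearman changed most of the 3 most like genes for each of the 9 members ranked. Over 8 points several genes tied at the highest values, which limits this ranking. The gates of 10 pDC, 17 nonclassical monocytes and 2 cDC2 allowed no comparison in the main analysis, and 3 comparisons of them, with those of other gates left under 20 cells by a stricter setting, were not run there. Alternatives with at least 1000 UMIs per cell, looser myeloid gates and regulatory T cells without Lyz2-rich cells were chosen after seeing the data. No paired analysis was possible because the counts form 1 pooled sample without replicates. Depth limits Enah, Mk/platelet cells and all dendritic gates.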
